A study of Mus musculus with 10 samples.

Results

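Microglia purified from the midbrain and the striatum carried transcripts of 9 genes for inhibitory receptors of paired families, out of 53715 genes counted: Pirb, Pilra, Lilrb4a, Sirpa, Cd300a, Cd300lf, Cd200r1, Lair1 and Cd33. The genes were selected by symbol with the measured differences between midbrain and striatum in these libraries already known, so their regional values below are a description and carry no test. They did not behave as a block. Among libraries whose labels agree on the region, Pirb was higher in every midbrain library than in every striatum library of its cohort. Lair1 and Cd33 were lower there, and the other members overlapped between the regions in at least 1 cohort. With the other libraries placed by title, these separations did not hold in the second cohort, and with them placed by file name they did.

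All mice were untreated males of 3 months in normal housing, labelled C57BL/6 and given as C57BL/6 J in the methods, perfused before dissection, and no group carried a transgene or a deletion. The cells were enriched from papain digests of each region on a Percoll gradient and with CD11b microbeads, which retain every cell with this myeloid integrin and not microglia alone. By flow cytometry the study found nearly all purified cells to be microglia, with low CD45, and a few to be CD11b-positive cells with high CD45. Poly-A RNA was sequenced in bulk with MARS-seq, a protocol that reads the 3′ ends of transcripts. The pilot cohort comprised 2 midbrain and 2 striatum libraries, and in the second cohort 2 midbrain libraries (replicates 1 and 3) and 2 striatum libraries (replicates 1 and 3) could be assigned. A further 2 libraries of the second cohort are named midbrain in one label and striatum in another, and they were assigned to neither region. Assigned libraries held 575709 to 8463782 counts, and the shallowest was striatum replicate 3 of the second cohort, where 3 counts equal 5.21 CPM (counts scaled to the library's size). In that library a low gene is therefore measured poorly. Both regions were taken from the same mice, 2 in the pilot cohort and 3 in the second, but the sources do not settle which libraries share a mouse, since title numbers and the animal numbers in the file names of the second cohort differ. The fits therefore have no term for the animal, and p-values measure the spread between these libraries, which may be technical. Levels are CPM scaled with the trimmed mean of M values (TMM), and in bulk RNA fewer cells of a type and less RNA per cell cannot be told apart.

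Paired receptors are families of closely related surface proteins in which some members inhibit a myeloid cell and others activate it, often through ligand-binding domains that are nearly alike. The inhibitory members carry tyrosine motifs in the cytoplasmic tail, mostly immunoreceptor tyrosine-based inhibitory motifs (ITIMs), which recruit the phosphatases SHP-1 and SHP-2 or, in CD200R1, the adaptor DOK2. The activating members have short tails and signal through adaptors such as DAP12, encoded by Tyrobp, and the Fc receptor gamma chain, encoded by Fcer1g. In the brain, pairs such as CD47 with SIRPα and CD200 with CD200R1 are known for restraining microglia.

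The members lie on 6 mouse chromosomes, and 2 pairs of neighbours had log2 fold changes of opposite sign between the regions over both cohorts. Pirb and Lair1 are both on the minus strand of chromosome 7, 283 kb apart, in the leukocyte receptor complex. Cd300a and Cd300lf are on chromosome 11, 212 kb apart and on opposite strands. Pirb and Lair1 separated the regions in both cohorts, whereas Cd300a overlapped between them in the second cohort and Cd300lf in the pilot cohort. The promoters of these 4 genes are shown so that neighbours of opposite sign can be set side by side. Each is the 250 bases before the RefSeq start of the gene (GRCm38.p6), at chr7:3720383-3720632 on the minus strand for Pirb, chr7:4063205-4063454 on the minus strand for Lair1, chr11:115133993-115134242 on the minus strand for Cd300lf and chr11:114889791-114890040 on the plus strand for Cd300a. Capitals mark the letters GAGGAA or, on the other strand, TTCCTC, the core recognised by the myeloid factor PU.1.
Pirb: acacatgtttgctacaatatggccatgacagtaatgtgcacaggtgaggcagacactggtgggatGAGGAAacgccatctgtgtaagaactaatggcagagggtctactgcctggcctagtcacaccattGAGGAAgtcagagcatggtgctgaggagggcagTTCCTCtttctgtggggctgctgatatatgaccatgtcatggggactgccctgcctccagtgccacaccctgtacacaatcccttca
Lair1: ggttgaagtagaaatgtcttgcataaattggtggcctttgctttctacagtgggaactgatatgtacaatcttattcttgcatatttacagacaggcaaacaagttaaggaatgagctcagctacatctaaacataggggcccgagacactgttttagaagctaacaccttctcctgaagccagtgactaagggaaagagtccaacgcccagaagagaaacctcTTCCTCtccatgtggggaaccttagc
Cd300lf: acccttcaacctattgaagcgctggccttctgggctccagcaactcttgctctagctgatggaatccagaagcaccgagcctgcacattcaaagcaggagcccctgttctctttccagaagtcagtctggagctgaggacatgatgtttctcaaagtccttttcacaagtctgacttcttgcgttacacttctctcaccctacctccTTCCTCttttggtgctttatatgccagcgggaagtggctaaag
Cd300a: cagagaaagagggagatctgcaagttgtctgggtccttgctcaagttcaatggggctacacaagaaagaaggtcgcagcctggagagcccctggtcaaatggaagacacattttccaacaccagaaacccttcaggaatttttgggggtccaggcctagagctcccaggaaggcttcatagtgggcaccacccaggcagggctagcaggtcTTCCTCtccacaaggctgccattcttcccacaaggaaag
All 4 windows hold the core, and so do those of Pilra and Cd33, which makes 6 of the 6 members with a RefSeq promoter entry, against 23.3% of 32851 promoter windows of the same length. The Pirb window holds 3 cores, as 0.43% of all windows do, with the first base of each 185, 120 and 87 bases before the start. The single core of Lair1 begins 26 bases before the start, that of Cd300a 39 bases and that of Cd300lf 43 bases. The C/EBP letters TTGCNNAA were found, on either strand, in 3 of the 6 windows (Pilra, Lair1 and Cd300a) and in 9.6% of all windows. The AP-1 letters TGANTCA were found in none of the 6 and in 6.7% of all windows. The neighbours of each pair shared the PU.1 core, and whether it bears on their regional values was not tested. A match of letters does not show that a factor is bound.

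Levels between the genes were compared as the mean CPM of the 8 assigned libraries per kilobase of exon, which is only approximate for a 3′ protocol. Sirpa was the most abundant member at 198 CPM per kb, followed by Lair1 at 61.3, Pirb at 33.9, Cd300a at 28.0, Cd33 at 25.9 and Pilra at 18.5 CPM per kb. Cd200r1 reached 7.41 and Cd300lf 3.36 CPM per kb. Lilrb4a was lowest at 0.272 CPM per kb.

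**Figure D1:**
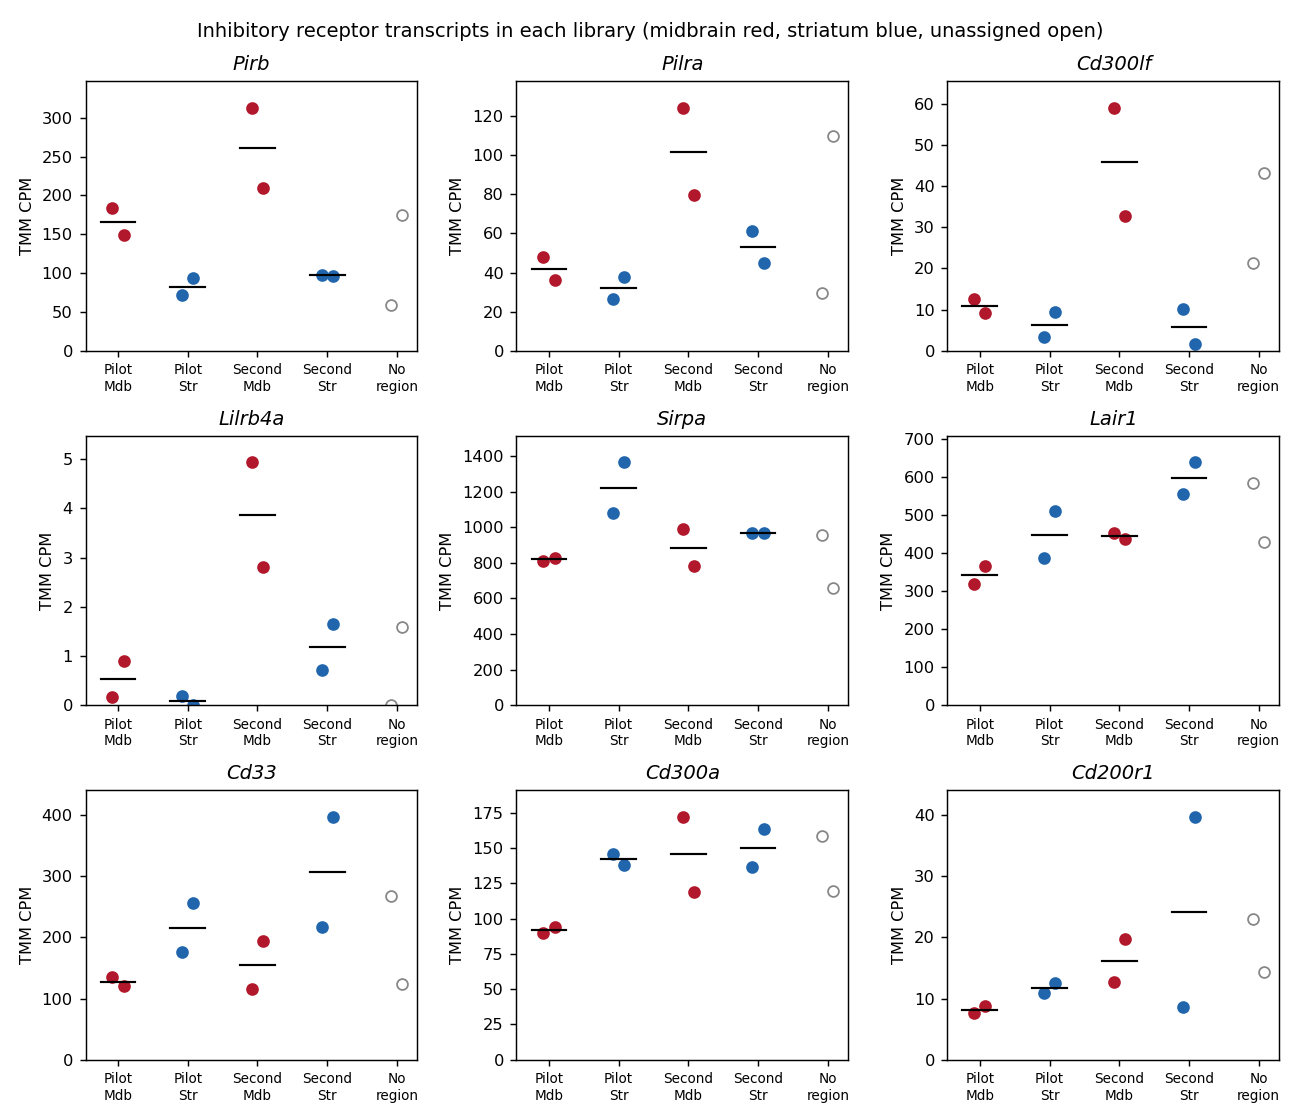
TMM-scaled CPM (linear axes from 0) of the 9 members in each library, by cohort and region, with a bar at the mean of each group of 2 and open points for the 2 libraries with no assigned region (left, titled midbrain; right, titled striatum). Pirb separates midbrain from striatum in both cohorts, Lair1 and Cd33 separate them in the other direction, and Pilra, Cd300lf and Lilrb4a are highest in the second midbrain libraries.

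Pirb encodes PIR-B, an ITIM receptor for MHC class I molecules and the mouse relative of human LILRB2 and LILRB3. It lies at chromosome 7, 3711409 to 3720391, on the minus strand of GRCm38. In the pilot cohort it stood at 183 and 149 CPM in the midbrain libraries and at 71.4 and 93.5 CPM in the striatum libraries. The second cohort gave 312 and 210 CPM in midbrain and at 98.0 and 96.0 CPM in striatum. The lowest midbrain library was above the highest striatum library across both cohorts. Midbrain exceeded striatum by a log2 fold change of 1.02 (SE 0.20) in the pilot cohort, 1.34 (SE 0.30) in the second and 1.19 (SE 0.17) in the fit over both cohorts. By group mean the order was second midbrain (261 ± 72.5, SD, n = 2), pilot midbrain (166 ± 24.3), second striatum (97.0 ± 1.41) and pilot striatum (82.4 ± 15.6 CPM), with no overlap between neighbours in this order. Adding the 2 unassigned libraries by their titles lowered the log2 fold change over both cohorts to 0.68, and adding them by their file names gave 1.21. The unassigned library titled midbrain held 59.0 CPM, below both second striatum libraries. Over every alternative the value of the second cohort ranged from 0.35 to 1.67.

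Pilra encodes PILRα, an ITIM receptor for sialylated glycoproteins such as CD99 and PIANP. It was at 47.7 and 36.2 CPM in pilot midbrain and at 26.7 and 37.7 CPM in pilot striatum, so the regions overlapped in that cohort. The second cohort had 124 and 79.5 CPM in midbrain and at 61.2 and 44.7 CPM in striatum, without overlap. The log2 fold change was 0.38 (SE 0.25) in the pilot cohort, 0.77 (SE 0.34) in the second and 0.58 (SE 0.21) over both. With the unassigned libraries placed by title, the second cohort gave -0.08, and by file name it gave 1.15. The antisense-strand gene Zcwpw1 shares 15.1% of Pilra's exon bases and 46.8% of its last 1000 exonic bases. The counting used no strand and left out reads that fall in several genes, so the level of Pilra is a minimum.

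Cd300lf encodes CLM-1, an ITIM receptor that binds phosphatidylserine and ceramide and serves as the murine norovirus receptor. In pilot midbrain it was at 12.7 and 9.26 CPM, and in pilot striatum at 3.41 and 9.32 CPM, so the regions overlapped. Second-cohort values were 59.0 and 32.8 CPM in midbrain and at 10.1 and 1.65 CPM in striatum, the last of these being 1 count. The log2 fold change was 0.84 (SE 0.47) in the pilot cohort, 2.67 (SE 0.70) in the second and 1.60 (SE 0.49) over both. The pilot value was 0.26 without striatum replicate 1 and 1.66 without striatum replicate 2, and the second value was 1.98 without midbrain replicate 1 and 4.05 without striatum replicate 1. Without single libraries the value over both cohorts ranged from 1.28 to 2.29, and with the unassigned libraries placed by title the second cohort gave 0.98. The second midbrain group (45.9 ± 18.5 CPM, SD, n = 2) stood above all the other groups, which overlapped each other at means of 5.87 to 11.0 CPM.

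Lilrb4a encodes gp49B1, an ITIM receptor of mast cells and myeloid cells. It had 1 and 5 counts in the pilot midbrain libraries and 1 and 0 in the pilot striatum libraries. The second cohort gave 23 and 12 counts in midbrain, or 4.93 and 2.81 CPM, and 2 and 1 counts in striatum, or 0.72 and 1.65 CPM. Both striatum groups lay at or under the floor of 3 counts, and the gene passed the filter on low counts in the second cohort alone. There the mean of the midbrain libraries was at least 1.28-fold the mean floor of the striatum libraries, although each midbrain library lay under the floor of the shallowest striatum library. Of its last 1000 exonic bases, 96.8% are shared with Gm49339 and Gm40645. Reads that fall in several genes were not counted, so the level of Lilrb4a is a minimum.

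Sirpa encodes SIRPα, the receptor of the CD47 signal that restrains phagocytosis, and was the most abundant member. In the pilot cohort it was at 811 and 828 CPM in midbrain and at 1081 and 1363 CPM in striatum, without overlap. Second midbrain held 988 and 782 CPM and second striatum 966 and 965 CPM, so that both striatum libraries lay between the midbrain libraries. The log2 fold change was -0.55 (SE 0.19) in the pilot cohort, -0.20 (SE 0.23) in the second and -0.35 (SE 0.13) over both.

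Lair1 encodes an ITIM receptor for collagens and complement C1q. Pilot midbrain held 319 and 366 CPM and pilot striatum 387 and 510 CPM. The second cohort held 454 and 436 CPM in midbrain and 555 and 639 CPM in striatum. Every assigned midbrain library was below every assigned striatum library of its cohort, while second midbrain and pilot striatum overlapped. The unassigned library titled midbrain held 584 CPM and the one titled striatum 430 CPM. By title the regions thus overlapped in the second cohort, and by file name they stayed apart. The log2 fold change was -0.36 (SE 0.20) in the pilot cohort, -0.47 (SE 0.23) in the second and -0.38 (SE 0.13) over both.

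Cd33 encodes a sialic acid-binding receptor of the Siglec group, whose mouse form lacks the canonical membrane-proximal ITIM of human CD33. In pilot midbrain it was at 135 and 121 CPM, and in pilot striatum at 176 and 256 CPM. The second cohort had 115 and 194 CPM in midbrain and at 218 and 397 CPM in striatum. Midbrain was the lower region in both cohorts without overlap, and the log2 fold change was -0.72 (SE 0.21) in the pilot cohort, -0.97 (SE 0.35) in the second and -0.79 (SE 0.22) over both. The highest value, 397 CPM, came from the shallowest library, and the log2 fold change of the second cohort without single libraries ranged from -1.51 to -0.53. The unassigned library titled midbrain held 267 CPM and the one titled striatum 125 CPM. By title the regions thus overlapped in the second cohort, and by file name they stayed apart.

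Cd300a encodes an ITIM receptor for phosphatidylserine and phosphatidylethanolamine. It was at 90.1 and 94.4 CPM in pilot midbrain and at 146 and 138 CPM in pilot striatum, a log2 fold change of -0.61 (SE 0.17). Second midbrain held 172 and 119 CPM and second striatum 136 and 164 CPM, a log2 fold change of -0.09 (SE 0.29). The regions were apart in the pilot cohort and interleaved in the second. The fit over both cohorts gave -0.34 (SE 0.17).

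Cd200r1 encodes the receptor of CD200, which recruits DOK2 without an ITIM. It was at 7.62 and 8.73 CPM in pilot midbrain and at 11.0 and 12.6 CPM in pilot striatum. In the second cohort midbrain held 12.7 and 19.7 CPM, and striatum held 8.64 CPM and, in the shallowest library, 39.7 CPM. The log2 fold change was -0.52 (SE 0.32) in the pilot cohort and 0.25 (SE 0.57) in the second, and without single libraries the latter ranged from -1.46 to 0.80. Its direction in the second cohort thus depended on which library was left out.

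**Figure D2:**
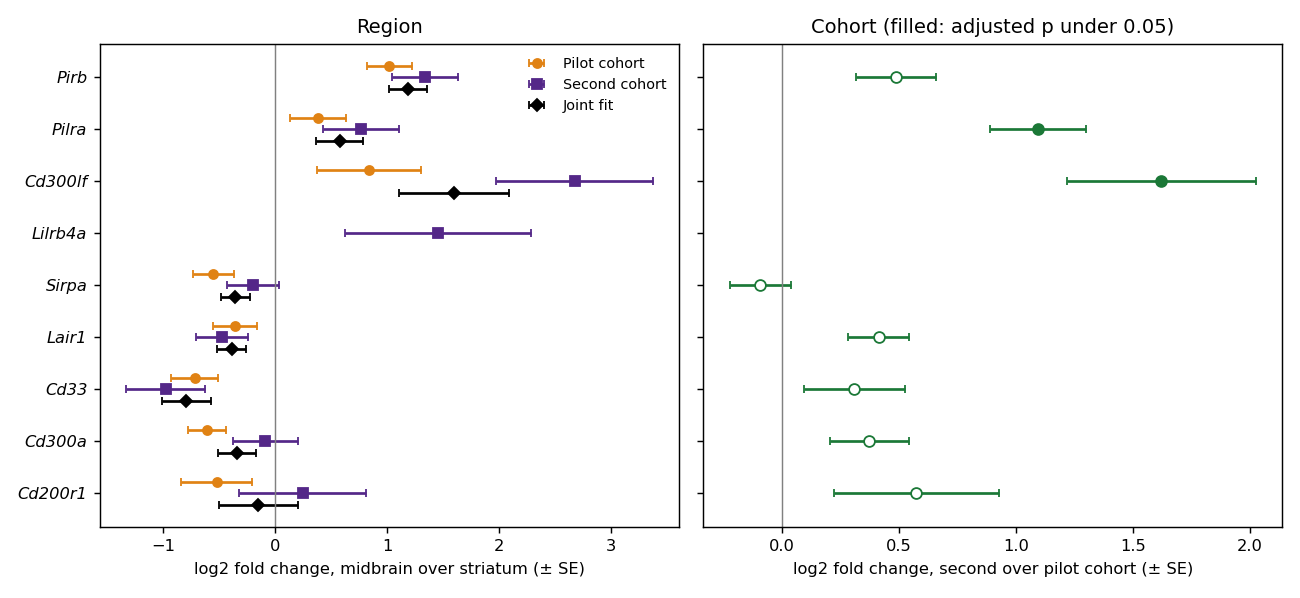
Left, log2 fold change of midbrain over striatum with its standard error for the pilot cohort, the second cohort and the fit over both; Lilrb4a passed the filter in the second cohort alone, where its striatum libraries are at or under 3 counts and the fitted value is no bound. Right, log2 fold change of the second cohort over the pilot cohort with its standard error, where Pilra and Cd300lf passed an adjusted p of 0.05 (filled points); Pirb, Pilra and Cd300lf lie to the right of 0 in every regional fit and Sirpa, Lair1, Cd33 and Cd300a to the left.

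The counts of members called are given beside those of all genes, and because the same contrast was known when the members were selected, nothing is read from them. At the study's cutoff of an unadjusted p of 0.01, 3 of the 8 members tested were called in the pilot cohort (Pirb higher, Cd33 and Cd300a lower in midbrain), where 2.64% of all genes were called. In the second cohort 2 of 9 were called (Pirb and Cd300lf, both higher), where 3.47% of all genes were. In the fit over both cohorts, at a Benjamini-Hochberg adjusted p of 0.05, 1 of 8 was called (Pirb), against 1.06% of all genes. Midbrain and striatum were apart in both cohorts, with midbrain higher, for Pirb and for 8.28% of all genes, and with midbrain lower for Lair1 and Cd33 and for 6.04% of all genes. The median log2 fold change of the members over both cohorts was -0.24, beside 0.04 over all genes. Of the 8 members tested in both cohorts, 7 kept their direction, beside 59.5% of 13210 genes, and Cd200r1 did not.

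The difference between the cohorts was not used to select the genes, so the members were tested in it. It comes from the same libraries as the regional differences, so the test is not independent of them. Of the 8 members tested, 2 were called, both with a positive value, in a contrast in which limma called 10.5% of all genes. Pilra gave 1.10 on the log2 scale (SE 0.21, adjusted p = 0.0122 by limma), and Cd300lf 1.62 (SE 0.40, adjusted p = 0.0303 by limma). Each is a single value over both regions. From pilot to second cohort the mean of Pilra went from 42.0 to 102 CPM in midbrain and from 32.2 to 52.9 in striatum. That of Cd300lf went from 11.0 to 45.9 CPM in midbrain and from 6.37 to 5.87 in striatum, so its striatum was not higher. The members' median was 0.45, beside -0.02 over all genes, and 7 of the 8 had a positive value. Lair1 gave 0.41 (adjusted p = 0.0619), Pirb 0.49 (0.0878), Cd300a 0.37 (0.166), Cd200r1 0.57 (0.299) and Cd33 0.31 (0.361), all by limma and short of the threshold. Sirpa gave -0.09 (SE 0.13, adjusted p = 0.685 by limma). The call of Cd300lf was lost with edgeR (adjusted p = 0.0730), with DESeq2 (adjusted p = 0.0552) and with counts thinned to the shallowest library (adjusted p = 0.160). Leaving out either pilot midbrain library ended both calls (Pilra, adjusted p = 0.0590 and 0.0549, and Cd300lf, 0.124 and 0.118, by limma). Over all genes those fits called 134 and 300, against 1480 with all 8 libraries. Without pilot striatum replicate 1 or second midbrain replicate 1, Cd300lf alone lost its call (adjusted p = 0.0575 and 0.111 by limma). Lair1 passed with DESeq2 (adjusted p = 0.0294) and, by limma, with at least 10 counts in every library (0.0459), with the unassigned libraries by file name (0.0248) and without pilot striatum replicate 2 (0.0385). Pirb passed without pilot striatum replicate 2 (0.0459) and Cd200r1 without second striatum replicate 1 (0.0476), both by limma. The cohorts were separate experiments, so a difference in handling cannot be told apart from a difference between the mice.

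The activating and other non-ITIM relatives of the members were listed to see whether a difference was shared within a family. The list also holds Trem1, Trem2 and Trem3, which belong to the family of no member. Of its 25 genes, 21 had a row in the files and 16 were tested over both cohorts. Those without a row were Pira1, Pira6, Pira7 and Pira11, and Pira2 was at or under 3 counts in every assigned library. The activating partners of Pirb could therefore not be compared with it. Trem1, an activating receptor that amplifies inflammation, rose in midbrain by 2.04 on the log2 scale (SE 0.43, adjusted p = 0.0456 by limma), from 6.35 ± 0.68 to 15.0 ± 1.79 CPM in the pilot cohort and from 5.26 ± 2.75 to 61.8 ± 23.7 CPM in the second (SD, n = 2 per group). Siglech, a DAP12-coupled Siglec typical of microglia, fell by 0.84 on the log2 scale (log2 fold change -0.84, SE 0.17, adjusted p = 0.0417 by limma). These 2 were the ones called, 1 in each direction, where 0.975% of all genes were called higher and 0.0854% lower. Of them Siglech alone is a relative of a member, Cd33. The list's median was 1.12.

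Within the LILR and PIR family, Lilr4b, which encodes the ITIM-less gp49A beside Lilrb4a, gave 2.29 (SE 0.55, adjusted p = 0.0785 by limma). Its CPM were 31.0 to 34.2 in pilot midbrain against 10.0 to 13.9 in pilot striatum, and 81.6 to 322 in second midbrain against 14.9 to 15.8 in second striatum. Lilra5 went against Pirb, at -0.71 (SE 0.20, adjusted p = 0.115 by limma) with both regions apart in each cohort. Lilra6, at 1.52 to 21.0 CPM, gave 1.27 (SE 0.55, adjusted p = 0.311 by limma), on the side of Pirb, with the regions apart in the pilot cohort alone. Lilr4b and Lilrb4a, like Pirb and the Pira genes or Pilra and the Pilrb genes, are near-identical over long stretches, so the split of reads between them is uncertain.

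The other families gave mixed values. Pilrb1 and Pilrb2, the activating partners of Pilra, gave 0.90 (SE 0.52) and 1.63 (SE 0.58), neither past the threshold (adjusted p = 0.465 and 0.219 by limma). Sirpb1b and Sirpb1c gave 2.17 (SE 0.49, adjusted p = 0.0611 by limma) and 1.63 (SE 0.56, adjusted p = 0.208), where Sirpa gave -0.35. Among the CD300 genes, the abundant Cd300c2 gave -0.29 (SE 0.13, adjusted p = 0.315 by limma), near Cd300a, while Cd300ld gave 1.12 (SE 0.37, adjusted p = 0.185), on the side of Cd300lf. Cd300e gave 0.02 (SE 0.27, adjusted p = 0.976 by limma). Outside the families of the members, Trem2 and Trem3 lay on opposite sides of 0. Trem2, a lipid receptor of microglia at 1425 to 2349 CPM in the assigned libraries, gave -0.43 (SE 0.12, adjusted p = 0.115 by limma). Trem3 gave 1.47 (SE 0.32, adjusted p = 0.0578 by limma).

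**Figure D3:**
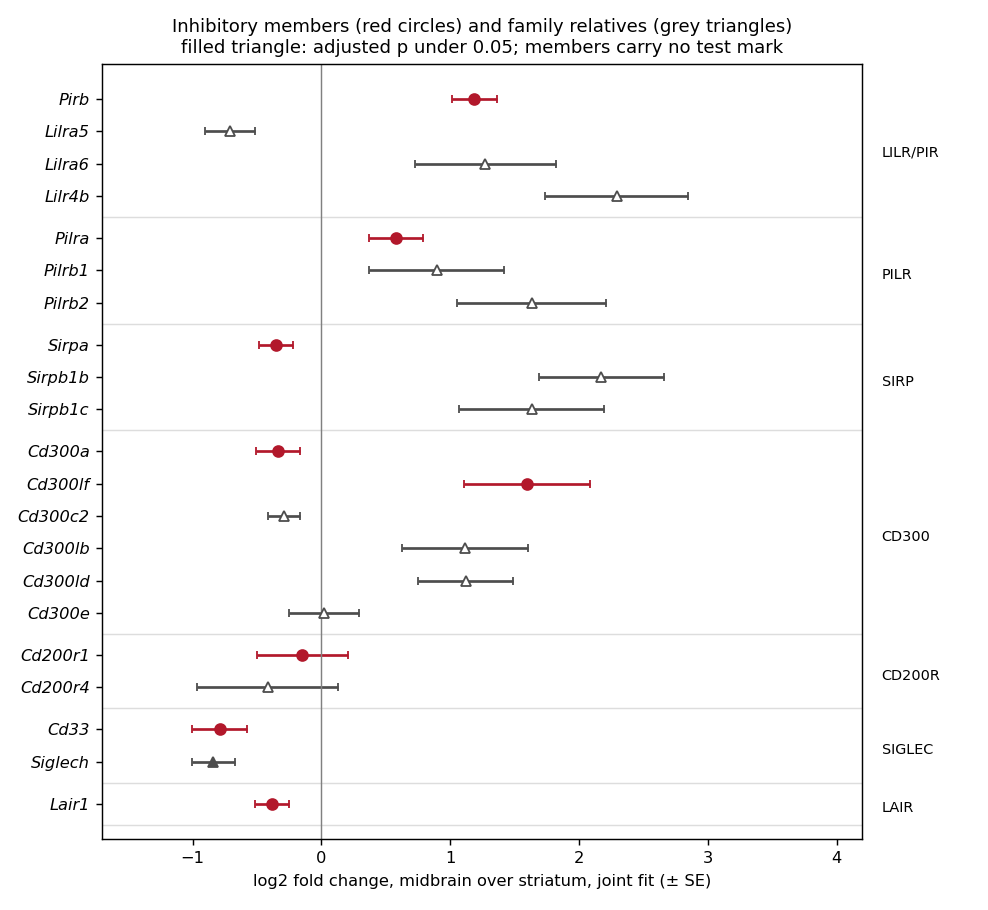
Log2 fold change of midbrain over striatum over both cohorts, with its standard error, for the members (red circles, no test mark) and their relatives (triangles, filled at an adjusted p under 0.05) by family. Among the relatives drawn Siglech is the filled one, at -0.84, and SIRP and CD300 genes lie on both sides of 0.

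Adaptors, kinases and phosphatases that serve both kinds of receptor were listed apart. Of 13 adaptors and kinases of the activating pathway, none passed limma's threshold (1 had an unadjusted p under 0.05; edgeR called 0 and DESeq2 1), and their median was -0.06. Tyrobp gave -0.13 (SE 0.12, adjusted p = 0.674 by limma), Fcer1g -0.06 (SE 0.13, adjusted p = 0.856) and the kinase Lyn, which phosphorylates both kinds of motif, -0.24 (SE 0.18, adjusted p = 0.568). Of 9 inhibitory effectors 1 was called, higher in midbrain, and the list's median was 0.13. That gene was Dok2, the adaptor that CD200R1 recruits, at 1.55 (SE 0.27, adjusted p = 0.0247 by limma), with 21.6 to 28.4 CPM in pilot midbrain against 9.29 to 11.8 in pilot striatum and 31.7 to 38.0 in second midbrain against 4.96 to 7.92 in second striatum. Ptpn6, which encodes SHP-1, gave 0.13 (SE 0.13, adjusted p = 0.681 by limma), Inpp5d, which encodes SHIP1, -0.37 (SE 0.16, adjusted p = 0.320), and Socs3, a feedback inhibitor of cytokine signalling, 0.61 (SE 0.15, adjusted p = 0.0847).

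Among 15 genes for ligands of the members, none passed limma's threshold (3 had an unadjusted p under 0.05; edgeR called 1 and DESeq2 2), and the median was 0.34. The MHC class I genes, which encode ligands of PIR-B, gave 0.57 for H2-D1 (SE 0.12, adjusted p = 0.0511 by limma), 0.35 for H2-K1 (SE 0.17, adjusted p = 0.386) and 0.83 for B2m (SE 0.42, adjusted p = 0.399). Of 17 other inhibitory receptors tested of 20 listed, 2 were called, both higher in midbrain, and the median was 0.41. They were Clec12a, an ITIM receptor for uric acid crystals, at 2.78 (SE 0.57, adjusted p = 0.0420 by limma), and Btla, an inhibitory receptor of lymphocytes and some myeloid cells (adjusted p = 0.0410 by limma). Btla was at 2.32 to 3.22 CPM in pilot midbrain and 2.11 to 10.3 CPM in second midbrain, and at or under 3 counts in all striatum libraries, so its mean was at least 2.57-fold the mean floor there. The abundant Vsir gave -0.61 (SE 0.13, adjusted p = 0.0531 by limma), Lag3 -0.58 (SE 0.17, adjusted p = 0.134) and Fcgr2b -0.20 (SE 0.21, adjusted p = 0.372). Siglec15 and Tigit had no count in any assigned library. Over the 5 lists, 4 of 70 genes rose and 1 fell. All 5 calls were lost without pilot midbrain replicate 1, pilot striatum replicate 1, second striatum replicate 1 or second striatum replicate 3. Over all genes those fits called 0, 9, 0 and 3, against 149 with all 8 libraries, so the loss was not particular to these lists. Without pilot midbrain replicate 2, 1 pathway gene was called beside 79 of all genes. Without second midbrain replicate 3, 9 were called beside 238.

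Markers of other CD11b-positive cells moved with region as well, and their part in the results above was not tested. Of 12 monocyte markers, 12 were tested and 4 rose, with a median log2 fold change of 2.06. The summed level was 301 to 394 CPM in pilot midbrain, 135 to 152 in pilot striatum, 752 to 3375 in second midbrain and 154 to 257 in second striatum. Of 12 neutrophil markers 6 rose, with a median of 1.71 and summed levels, in the same order, of 1212 to 1575, 902 to 996, 4413 to 6876 and 971 to 1018 CPM. Of 11 markers of brain border macrophages 6 rose, with a median of 1.53 and summed levels of 2021 to 2432, 1031 to 1509, 2685 to 3270 and 629 to 721 CPM. In all 3 lists the highest library was a second midbrain library, though not the same one. Pirb, Pilra, Cd300lf and Lilrb4a were highest in replicate 1 of that group, and the border macrophage sum was highest in replicate 3.

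Microglial markers lay on the other side. Of 12 tested, 1 fell (Olfml3), none was positive and the median was -0.56, with summed levels of 19327 to 21429, 27327 to 28992, 19321 to 21969 and 28037 to 31518 CPM in the same order of groups. Lair1 and Cd33 showed this order of regions in both cohorts. The medians of these 4 lists held their sign without any single library (1.64 to 2.47 for monocytes, 1.56 to 2.05 for neutrophils, 1.25 to 1.83 for border macrophages and -0.64 to -0.46 for microglia), but the calls did not hold. By limma, none of their genes was called without pilot midbrain replicate 1, second striatum replicate 1 or second striatum replicate 3, and without pilot striatum replicate 1 only 3 neutrophil markers were called. Over all genes the first of these fits called 0, 0 and 3, and the last called 9, against 149 with all 8 libraries. In these 4 fits 9 to 11 of the 12 monocyte markers still had an unadjusted p under 0.05. Without pilot midbrain replicate 2, 1 monocyte marker and 0 microglial markers were called (10 of the latter had an unadjusted p under 0.05). With the unassigned libraries by title none was called in the 4 lists (0 to 4 genes per list had an unadjusted p under 0.05). DESeq2 called 9 monocyte, 8 neutrophil, 10 border macrophage and 4 microglial markers, and edgeR called 5, 7, 9 and 0. Of 7 markers of T and NK cells 1 rose, with a median of 1.83 and sums of 16.5 to 313 CPM across groups. The call was lost in the same 4 fits, with thinned counts and with the unassigned libraries by title or by file name. Of 5 dendritic cell markers none passed by limma, with a median of 1.62. Among them 4 had an unadjusted p under 0.05 by limma, and edgeR called 0 and DESeq2 3. No gene of these lists was at 0 in all assigned libraries, and the most abundant were Csf1r for microglia, Pf4 for border macrophages, Plac8 for monocytes, S100a9 for neutrophils, Gzma for T and NK cells and Cd209a for dendritic cells. The medians of the lists for B cells (1 gene tested), astrocytes (6), oligodendrocytes (6), neurons (3) and endothelial cells (6) were -0.34, 0.23, 0.12, -0.04 and 0.04. None of their genes passed limma's threshold (0, 1, 0, 1 and 1 had an unadjusted p under 0.05; edgeR called none and DESeq2 1, an astrocyte marker). The astrocyte median was 0.79 in the pilot cohort and -0.94 in the second, so its value over both joins opposite directions.

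Between cohorts, where Pilra, Cd300lf and 10.5% of all genes were called, the monocyte markers had a median of 1.91 and the neutrophil markers 0.98. In each of these lists 6 of 12 were called higher. From pilot to second cohort the neutrophil sums went from 1212 to 1575 CPM to 4413 to 6876 in midbrain, and from 902 to 996 to 971 to 1018 in striatum. The monocyte sums went from 301 to 394 CPM to 752 to 3375 in midbrain, and from 135 to 152 to 154 to 257 in striatum. As sums both rises thus lay mostly in midbrain, while single markers went both ways in striatum. Among the neutrophil markers there, mean S100a9 went from 55.1 to 247 CPM and Csf3r from 546 to 431 CPM. Among the monocyte markers, Plac8 went from 10.1 to 52.0 CPM and Fn1 from 45.1 to 18.4 CPM. The microglial markers had a median of 0.25 with 2 of 12 called higher, and the border macrophage markers a median of -0.24 with none of 11 called by limma (1 had an unadjusted p under 0.05; edgeR and DESeq2 called 0). The endothelial markers had a median of -2.25 with all 6 called lower, and the neuronal markers a median of -2.15 with all 3 called lower. Without either pilot midbrain library the monocyte calls fell to 1, and without second midbrain replicate 3 they rose to 10. Over all genes those fits called 134, 300 and 918, against 1480 with all 8 libraries. The neutrophil calls fell to 3 without pilot midbrain replicate 1, the endothelial calls to 3 without pilot midbrain replicate 2, and the neuronal calls to 0 without either pilot midbrain library or second striatum replicate 3 and to 1 without second midbrain replicate 3. The microglial calls ranged from 1 to 4 without single libraries. By title 1 monocyte marker was called. Whether these cells account for the cohort difference of the 2 receptors was not tested.

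**Figure D4:**
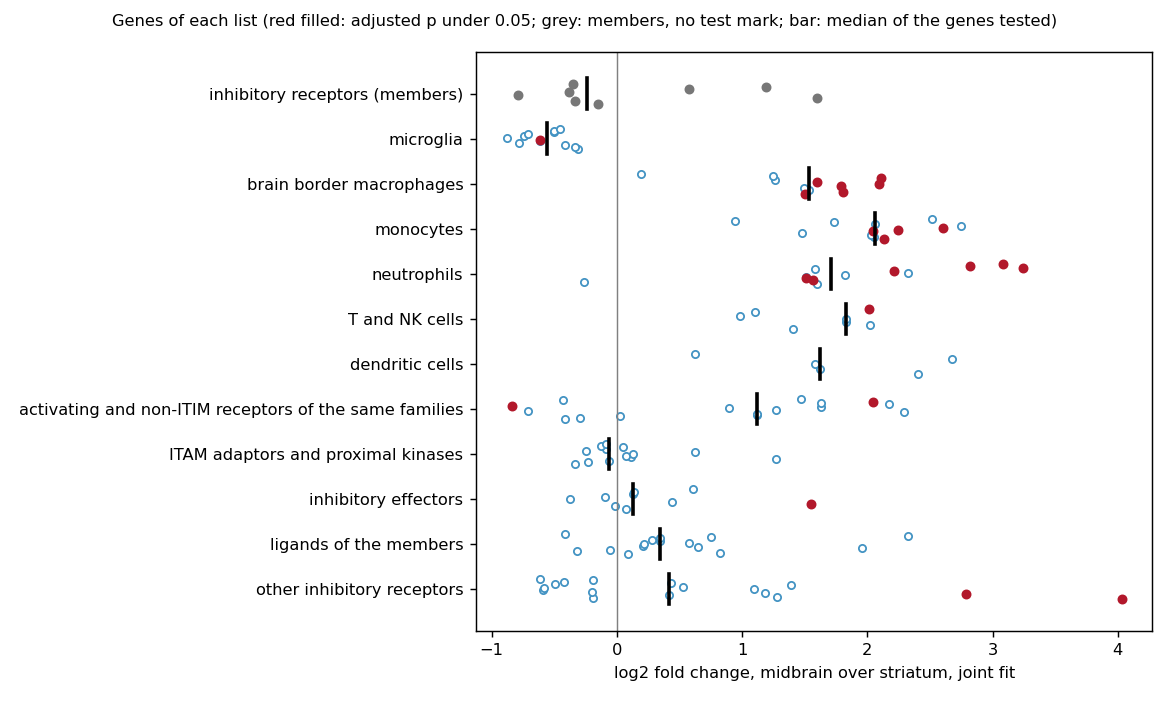
Log2 fold change of midbrain over striatum over both cohorts for each gene of the lists (points; red filled at an adjusted p under 0.05; members in grey without a test mark), with a bar at the median of the genes tested. Monocyte, neutrophil and border macrophage medians are 2.06, 1.71 and 1.53, the microglial median is -0.56, and the members lie on both sides of 0 with a median of -0.24.

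The genes with the profiles most like those of the members were found as the smallest root mean square difference between centred log2 CPM over the 8 assigned libraries, among 14045 genes. For Pirb they were Anxa5 (0.18) and Rilpl2 (0.20), for Pilra Fcgr4 (0.13) and Milr1 (0.15), and for Cd300lf Ifitm1 (0.26) and Mcub (0.28). For Lair1 they were Cd9 (0.07) and Prorsd1 (0.08), for Cd33 Cd1d1 (0.13) and Bid (0.14), and for Sirpa Siae (0.07) and Sft2d2 (0.09). For Cd300a they were Tsg101 (0.11) and Tnfrsf21 (0.12), and for Cd200r1 Usp14 (0.17) and Rnf214 (0.25). Among the members themselves the closest profiles were those of Cd300a and Lair1 (0.23), Sirpa and Cd300a (0.27) and Sirpa and Lair1 (0.30), and the farthest those of Cd300lf and Cd33 (1.85). Pirb was nearest to Pilra (0.40). Cd300a and Cd300lf, neighbours of one family, were 1.50 apart, and Pirb and Lair1 were 0.83 apart. These distances describe profiles that share libraries, depth and cohort.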

How the data were processed

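RNA from CD11b bead-purified microglia was sequenced as 10 bulk libraries. The authors aligned reads to GRCm38 with STAR 2.5.3a (FastQC for quality), counted exonic reads with featureCounts 1.6.0 on Gencode M17 and deposited raw read counts per gene, without normalization, strand or reads shared by several genes. The sources used here do not say that molecular identifiers were counted, so amplified reads are not independent molecules, and floors cover counting error only. Symbols were matched to 53620 of 53715 identifiers, with positions from Gencode (GRCm38) and promoters from RefSeq. The members and lists were chosen with earlier results of these data known.

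Libraries were grouped by title, and 2 whose title and file name differ were left unassigned. Counts were scaled with TMM (edgeR 4.0.16; R 4.3.3) and tested as in the study with limma 3.58.1 (voom weights, lmFit, eBayes); a gene was dropped where over 50% of the libraries fitted had under 6 counts. Tests were two-sided, at an unadjusted p of 0.01 within a cohort and an adjusted p (Benjamini-Hochberg, all genes) of 0.05 in the fit of 8 libraries with region and cohort. Log2 CPM used a prior count of 2. Each list gave the genes named by a rule: up to 5 called genes, the 3 most abundant, and for family relatives those of at least 10 CPM. Lilra6, Pilrb1, Pilrb2, Sirpb1b and Sirpb1c were named after their values were seen, as were Siglec15, Tigit and Olfml3. Of 185 list symbols 181 matched. The procedure was tested on simulated data. Alternatives were other scaling, filters, edgeR's quasi-likelihood test, DESeq2 1.42.0, a replicate block, thinning, both placements of the unassigned libraries and leaving out each library. The study's other assays were not analysed here.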

Additional observations from a re-analysis of the deposited data

Results flagged for a closer look

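The 2 libraries without an assigned region were left out of the main fits and entered only the alternatives that place them by title or by file name. Their values are given singly. Every member but Lilrb4a was above 3 counts in both. In the library titled midbrain whose file names the striatum, Pirb stood at 59.0 CPM, Pilra at 29.5, Sirpa at 958, Cd300a at 159, Cd300lf at 21.2, Cd200r1 at 23.0, Lair1 at 584 and Cd33 at 267 CPM, and Lilrb4a had 0 counts. In the library titled striatum whose file names the midbrain, Pirb stood at 174 CPM, Pilra at 110, Lilrb4a at 1.59, Sirpa at 661, Cd300a at 119, Cd300lf at 43.2, Cd200r1 at 14.3, Lair1 at 430 and Cd33 at 125 CPM. The values were not used to settle the region of either library.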

How the results depend on the processing

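Over every alternative run, Pirb, Cd300lf, Lair1 and Cd33 kept their direction between the regions in each fit, and Lilrb4a in the second cohort, where alone it was tested. In the second cohort Pilra kept it in 12 of 13 alternatives, Sirpa in 11, Cd300a in 10 and Cd200r1 in 7. The number of members called in the second cohort (2) was 1 with at least 10 counts in every library, 0 with the unassigned libraries by title and 4 by file name. Over both cohorts the number (1) was 2 without a filter, 3 with DESeq2, 2 with the replicate block, 0 by title and 2 by file name. Between cohorts the number (2) was 1 with edgeR and 1 with thinned counts, 3 without a filter and 3 by file name, and 2 with DESeq2, where Lair1 took the place of Cd300lf. The number of pathway genes called (5) was 10 without a filter, 1 with at least 10 counts in every library, 8 with edgeR, 19 with DESeq2, 12 with the replicate block, 0 by title (7 had an unadjusted p under 0.05) and 12 by file name. Leaving out single libraries gave 0 to 1 members over both cohorts, 0 to 4 between cohorts, and 0 to 9 pathway genes over both cohorts. Over all genes those fits called 0 to 238 over both cohorts and 134 to 2021 between cohorts. Within a cohort such a fit leaves 1 library in a group, so its calls are not counted. There the log2 fold change of Pirb ranged from 0.86 to 1.22 in the pilot cohort and from 1.08 to 1.67 in the second. The call of Pirb over both cohorts was lost without pilot midbrain replicate 1 or pilot striatum replicate 1, and without second striatum replicate 1 or 3. Over all genes those fits called 0, 9, 0 and 3. Without single libraries the log2 fold change of Pirb over both cohorts ranged from 1.04 to 1.29. The cause of these changes was not tested. Over all genes, the fit of both cohorts called 149 genes, against 237 with edgeR, 544 with DESeq2, 277 without a filter, 57 with at least 10 counts in every library, 308 with the replicate block, 0 by title and 440 by file name. Libraries with the same title number did not deviate together (correlation -0.03 in the pilot cohort and 0.08 in the second). Title numbers and the animal numbers of the file names differ in the second cohort, so these may not be the true pairs, and pairing by mouse was not tested. No block could be fitted between cohorts. Depth limits Lilrb4a and, in second striatum replicate 3, Cd300lf and Cd200r1.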
